A study of Danio rerio with 17 samples.

Results

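The genes described here encode the replicative helicase and its closest partners in DNA synthesis in zebrafish liver after a freezing injury. They were chosen by name from the list mcm2, mcm3, mcm4, mcm5, mcm6, mcm7, pcna, rrm1 and rrm2, wherever the name stood in the gene column of the count table, to time S phase after injury. All 9 names were found among 8513 entries, and all 9 passed the filter on low counts that left 8412 entries for testing. Livers of adult zebrafish were profiled by bulk RNA-seq after sham surgery (5 samples) or at 1, 3 or 7 days post-cryoinjury (dpci, 4 samples each), where a frozen probe is pressed on the ventral liver lobe. According to the study the fish carried a transgene, Tg(fabp10a:NLS-mCherry), whose promoter is active in hepatocytes. Its RNA came from the injured region of the ventral lobe and from the contralateral lobe, with injured border and other lobes kept apart. The sample titles name only liver and do not say which region a sample holds, so injured and sham samples may differ in region. Sham animals carried the transgene too, and no group had another allele or agent in the labels. Ages are not given in the labels. The sources differ on how livers were pooled and on whether samples are technical replicates, so the p-values measure the spread between these samples, which may be technical.

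Before a cell copies its DNA, the proteins of mcm2 to mcm7 are loaded as a ring onto replication origins, and in S phase this ring unwinds the double helix as the motor of the replicative helicase. The product of pcna is the sliding clamp that holds DNA polymerases on the template, and rrm1 and rrm2 encode the large and small subunits of ribonucleotide reductase, which makes the deoxynucleotides. Transcription of this group is controlled by E2F factors and rises as cells enter the cycle, so it serves as a readout of proliferation in regenerating liver, where most hepatocytes are quiescent at rest. In bulk tissue, fewer cells of a type and less RNA per cell cannot be told apart.

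Each sample held between 4743533 and 6800961 counts, of which 153 to 1269 fell on the 9 genes. Levels are CPM after TMM scaling, that is, counts brought to a common library size with a correction for differences in library composition. The TMM factors were 0.608 to 1.03 in sham and 1.20 to 1.69 at 1 dpci, so the choice of scaling bears on this comparison in particular. A count of 3, taken here as the floor, was worth 0.325 to 0.874 CPM. The hepatocyte markers fabp10a, apoa1b, tfa, serpina1 and cp were detected in every group, with a summed level of 67634 to 102340 CPM in sham and 27792 to 36946 CPM at 1 dpci. Of these 5, 4 were lower at 1 dpci than in sham at an adjusted p at or under 0.05 by edgeR (14.5% of all entries). Levels and calls of markers, here and below, are given with TMM scaling alone. In this comparison column totals moved the median log2 fold change of all entries from -0.02 to 0.84, so marker calls may depend on the scaling. The 5 hepatocyte markers summed to 55234 to 141298 CPM at 3 dpci and 74635 to 113819 CPM at 7 dpci. However, fabp10a was at 1393 to 12527 CPM at 3 dpci, against 11384 to 23505 CPM in sham. Against sham 0 of the 5 were called at 3 dpci by edgeR (0.0119% of all entries). At an unadjusted p at or under 0.05, 2 were higher and 1 lower (5.71% and 6.13% of all entries). The library numbers of sham replicates 1 to 4 are above those of all injured samples and that of sham replicate 5 is below them, and whether the numbers mark a batch is not given in the labels. At 1 dpci, replicates 1 and 2, and replicates 3 and 4, were much alike (r = 0.965 and 0.969 over log2 CPM, chi-square per entry 9.68 and 20.5). Samples of different pairs had r of 0.882 to 0.899 and chi-square per entry of 69.2 to 95.7. Both pairs differed beyond sampling noise, which cannot tell whether their samples share fish or pools. All were kept as separate samples, so p-values involving 1 dpci may rest on fewer independent samples than counted.

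None of the 9 genes showed a resolved S phase peak. At 1 dpci the mean level was the lowest of the 4 groups for 8 of 9 genes, with rrm2 as the exception, whose lowest mean was in sham. The highest mean fell in sham for 3 genes (mcm3, mcm4, mcm6), at 3 dpci for 4 (mcm5, pcna, rrm1, rrm2) and at 7 dpci for 2 (mcm2, mcm7). Leaving out rrm2, the highest group mean was between 1.73 and 3.07 times the lowest, whereas samples of one group differed by 1.29 to 13.3 times. Of 54 tests (9 genes in 6 comparisons), 1 passed an adjusted p of 0.05 in edgeR's quasi-likelihood test, and 5 had an unadjusted p at or under 0.05. Over the 6 comparisons 0% to 23.9% of all entries passed the adjusted threshold and 7.36% to 37.9% the unadjusted one. In 0 of the 54 did the samples of both groups separate completely. Among all entries such separation was seen for 23.2%, 4.16% and 1.3% at 1, 3 and 7 dpci against sham, for 24.4% and 25.9% at 3 and 7 dpci against 1 dpci, and for 3.26% at 7 against 3 dpci. In no gene did neighbours in the order of the means pass the test.

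**Figure D1:**
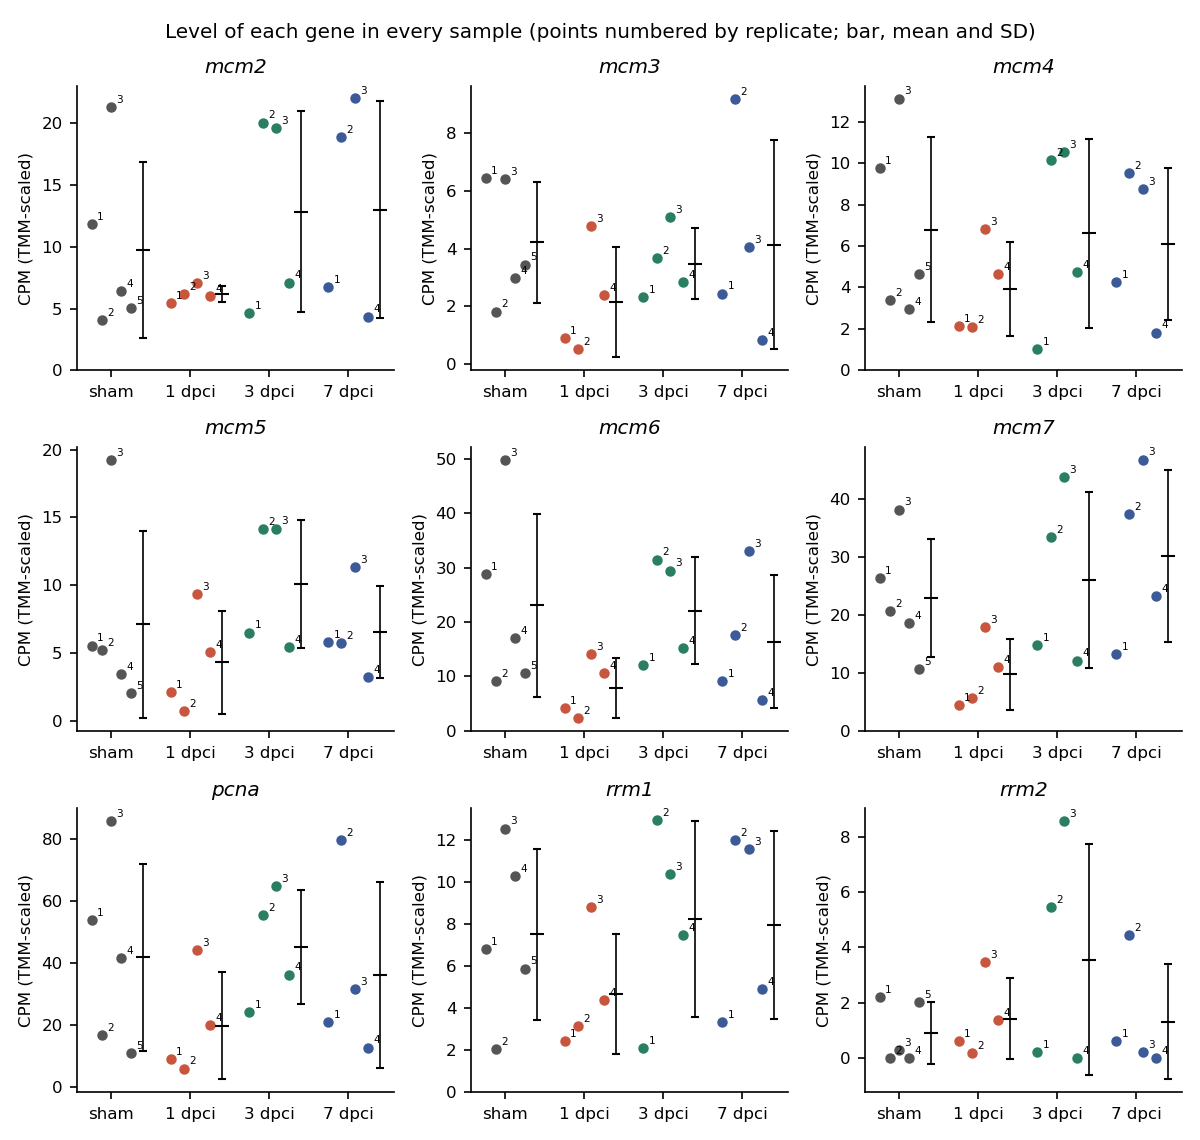
Level of each of the 9 genes in CPM after TMM scaling (vertical axis) in sham, 1, 3 and 7 dpci samples, numbered by replicate, with the mean and SD of each group beside the points. The 1 dpci samples lie low for most genes, mcm7 having a mean of 9.83 CPM there against 22.9 CPM in sham, but the ranges of the groups overlap in every panel.

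The helicase subunit gene mcm7 gave the one call. Its level was 26.4, 20.7, 38.2, 18.7 and 10.7 CPM in sham replicates 1 to 5 and 4.55, 5.80, 17.9 and 11.1 CPM at 1 dpci. It was 14.9, 33.4, 43.8 and 12.2 CPM at 3 dpci and 13.3, 37.4, 46.8 and 23.3 CPM at 7 dpci. The 1 dpci samples were low and the 7 dpci samples high, with one 1 dpci sample (replicate 3) above the lowest 7 dpci sample. From 1 to 7 dpci mcm7 rose 3.05-fold (log2 fold change 1.61, SE 0.53, adjusted p = 0.0389 by edgeR), in a comparison where 23% of all entries were called and 14.6% were called higher. The call was lost when 1 dpci replicate 1, 2 or 4 or 7 dpci replicate 2 or 3 was left out (adjusted p up to 0.112), and also with column totals (log2 fold change 0.88), with a fit of only these groups, with the 1 dpci samples summed in pairs and without both 7 dpci libraries whose names lack the letter R (adjusted p from 0.0561 to 0.210). All entries called numbered 1937 in the main fit, 1987 with column totals, and 1510, 535 and 1048 in the last 3 fits. At an unadjusted p at or under 0.05 the count was also 1 of 9 (37.7% of all entries), by DESeq2 it was 1 as well (mcm7, adjusted p = 0.0149, with 29.3% of all entries called), and by the thresholds of the study (log2 fold change of at least 1.5 in size with a p of at most 0.05, read here as unadjusted, which the methods do not state) it was 1 (12.6% of all entries higher).

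Its partner mcm6 had the largest fitted difference between 1 dpci and sham among the 9. Levels in sham were 28.8, 9.09, 49.8, 17.1 and 10.5 CPM, and at 1 dpci they were 4.09, 2.29, 14.1 and 10.7 CPM. At 3 dpci they were 12.2, 31.5, 29.5 and 15.1 CPM, and at 7 dpci 9.15, 17.6, 33.1 and 5.61 CPM. Both low 1 dpci samples (replicates 1 and 2) lay under every sham sample, and replicates 3 and 4 lay inside the sham range. The log2 fold change at 1 dpci against sham was -1.55 (SE 0.63, adjusted p = 0.0840), and it missed the threshold in edgeR while DESeq2 gave an adjusted p of 0.0424.

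The sliding clamp gene pcna was at 54.0, 16.8, 86.0, 41.7 and 10.9 CPM in sham and at 8.95, 5.98, 44.1 and 20.1 CPM at 1 dpci. It was at 24.3, 55.5, 64.9 and 36.3 CPM at 3 dpci and at 20.9, 79.9, 31.6 and 12.8 CPM at 7 dpci. Sham alone spanned a 7.85-fold range, and the ranges of all 4 groups overlapped. Relative to sham the log2 fold change of pcna was -1.07 (SE 0.67, adjusted p = 0.255) at 1 dpci, 0.11 (SE 0.65, adjusted p = 0.964) at 3 dpci and -0.21 (SE 0.66, adjusted p = 0.950) at 7 dpci. The interval of 2 SE reached from -1.19 to 1.42 at 3 dpci, so that 2-fold changes in either direction lay inside it.

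Helicase subunit gene mcm2 was the least variable of the set at 1 dpci. Its samples there were at 5.46, 6.15, 7.05 and 6.03 CPM, a 1.29-fold range, while the other genes spanned 3.24-fold or more in the same samples. In sham it was at 11.8, 4.09, 21.3, 6.39 and 5.07 CPM, at 3 dpci at 4.61, 20.0, 19.6 and 7.10 CPM, and at 7 dpci at 6.71, 18.9, 22.01 and 4.35 CPM. At 3 and 7 dpci the samples fell into a low and a high pair, the high pair being replicates 2 and 3 in both. Without TMM scaling the 1 dpci samples of mcm2 were at 7.05, 7.38, 11.9 and 9.23 CPM.

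Among the other helicase subunits, mcm3 ranged from 0.527 to 9.19 CPM over the 17 samples, mcm4 from 1.05 to 13.1 CPM and mcm5 from 0.703 to 19.2 CPM. At 1 dpci against sham their log2 fold changes were -0.93 for mcm3 (SE 0.65), -0.76 for mcm4 (SE 0.64) and -0.68 for mcm5 (SE 0.67), and adjusted p was 0.314 to 0.487. In all 3 genes 1 dpci replicates 1 and 2 were the low samples and replicate 3 the high one. The reference annotation holds further entries named mcm3l and mcm6l that are not among the entries used here. How alike their sequences are to mcm3 and mcm6 was not examined. Whether reads were split between them is therefore not known, and the levels of mcm3 and mcm6 are uncertain to that extent.

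Ribonucleotide reductase was covered by rrm1 and rrm2. The large subunit gene rrm1 ranged from 2.05 to 13.0 CPM, with means of 7.51 ± 4.06 CPM in sham (SD, n = 5). After injury the means were 4.69 ± 2.85 (1 dpci), 8.22 ± 4.66 (3 dpci) and 7.95 ± 4.45 CPM (7 dpci, SD, n = 4 each). Its group means differed by less than 1 SD at 3 and 7 dpci against sham. The entry rrm2 was at 0 counts in 4 samples and at or under the 3-count floor in 8 of 17, and its highest levels were 5.45 and 8.57 CPM in 3 dpci replicates 2 and 3. No difference in rrm2 was called (SE of the log2 fold changes 1.34 to 1.39). Its samples varied widely within groups, with counts of 1, 37, 52 and 0 in 3 dpci replicates 1 to 4. The name rrm2 is not a current symbol in the reference annotation, where it is an older name of both rrm2b and rrm2l, so the identity of this entry is not settled.

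Against sham, 0 of 9 genes were called at 1 dpci by edgeR, where 23.9% of all entries were called. At an unadjusted p at or under 0.05 there were 2 (mcm6 and mcm7, both lower, with 37.9% of all entries), and DESeq2 called 1 (mcm6, with 29.5% of all entries). By sign, 8 of 9 fitted values were below 0 (50.9% of all entries were), and the median log2 fold change was -0.76 over the 9 genes and -0.02 over all entries. Leaving out 1 sample moved the median of the 9 between -1.39 (without 1 dpci replicate 3) and -0.36 (without sham replicate 3). Scaling by column totals turned this direction (median 0.23, with 7 of 9 above 0), but that scaling also moved the median of all entries to 0.84, and relative to it the 9 genes stood at -0.61, against -0.74 with TMM. By the thresholds of the study 1 gene was lower (mcm6), as were 11.9% of all entries.

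At 3 dpci 0 of 9 genes differed from sham by edgeR (0.0119% of all entries called), with 0 at an unadjusted p under 0.05 (11.8% of all entries) and 0 by DESeq2 (2.37%), which left mcm3 and rrm2 without an adjusted p. The median log2 fold change was 0.14, against -0.01 over all entries. At 7 dpci 0 of 9 differed from sham (0% of all entries called), again with 0 at an unadjusted p under 0.05 (9.08% of all entries) and 0 by DESeq2 (0.266%), which left 6 genes without an adjusted p. The median was -0.03, against 0.04 over all entries. Leaving out rrm2, the lowest and the highest end of the intervals of 2 SE over the other genes were -1.56 and 1.83 at 3 dpci and -1.72 and 1.53 at 7 dpci on the log2 scale. At 3 dpci mcm3, mcm4 and mcm6 were below 0 with TMM and above 0 with column totals, as were mcm3, mcm4, mcm5 and pcna at 7 dpci.

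Between injured groups, all 9 fitted values were higher at 3 than at 1 dpci (52% of all entries were), with TMM and with column totals alike. The median log2 fold change was 1.19, against 0.04 over all entries, and it was 0.78 without 3 dpci replicate 3 and 1.85 without 1 dpci replicate 3. Even so 0 of 9 were called by edgeR (11.6% of all entries called), 2 had an unadjusted p at or under 0.05 (mcm6 at 1.49, SE 0.65, and mcm7 at 1.40, SE 0.53, with 29.3% of all entries), and DESeq2 called 1 (mcm7, adjusted p = 0.0489, with 18.8% of all entries). From 3 to 7 dpci 0 of 9 were called (0% of all entries), 0 had an unadjusted p under 0.05 (7.36% of all entries) and 0 were called by DESeq2 (0.607%), and the median log2 fold change was -0.13, against 0.04 over all entries. The comparisons share their 1 dpci, 3 dpci, 7 dpci or sham samples and are not independent of each other.

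**Figure D2:**
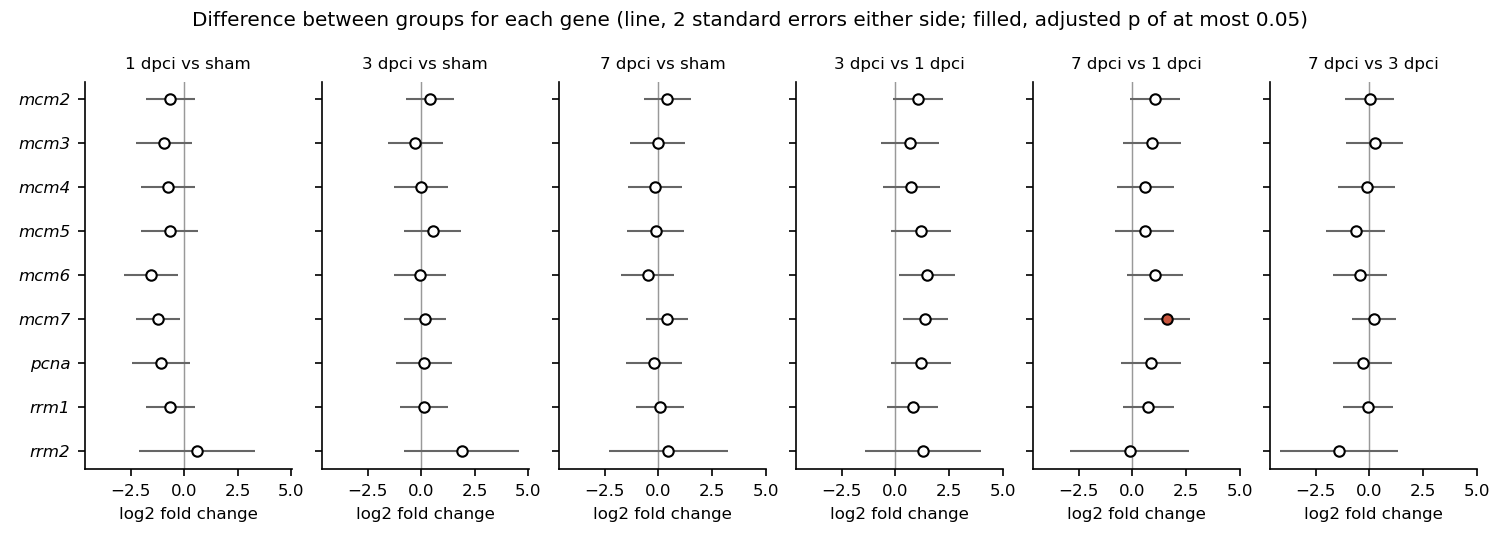
Log2 fold change of each gene (horizontal axis) in the 6 comparisons, with lines of 2 standard errors on either side and filled points where the adjusted p was at most 0.05. Only mcm7 in 7 dpci against 1 dpci is filled (1.61). The 1 dpci against sham values lie below 0 except for rrm2 under TMM scaling, whereas 7 of 9 lie above 0 under column totals.

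The genes varied together from sample to sample within groups. Over deviations of the 17 samples from their group means, the median correlation of the 36 gene pairs was 0.744 (0.380 to 0.886), and 33 pairs were over 0.5. Pairs of all entries had a median of -0.0009 and a 95th percentile of 0.535. These values are a description, since the points share libraries and depth. The closest pairs were mcm5 with mcm6 (0.886), mcm3 with pcna (0.885) and mcm2 with mcm4 (0.883), and rrm2, the sparsest entry, had the lowest median correlation with the others (0.511). All 9 genes had a biological coefficient of variation above the median of all entries (median 0.631 for the 9 and 0.413 for all). The entries were not matched for level, so the part of level in this difference was not tested.

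Summed over the 9 genes, sham replicates 1 to 5 stood at 151.8, 63.2, 246.9, 103.5 and 55.4 CPM, and the 1 dpci samples at 31.2, 26.9, 116.4 and 65.7 CPM. The 3 dpci samples stood at 68.1, 186.8, 206.6 and 91.2 CPM and the 7 dpci samples at 66.5, 194.6, 169.5 and 56.8 CPM. In sham, replicate 3 was the highest sample for 7 of 9 genes. At 1 dpci replicate 3 was the highest for 9 of 9. At 3 dpci replicates 2 and 3 shared the highest place (3 and 6 genes), as they did at 7 dpci (5 and 4 genes), where replicate 4 was the lowest for 7. The sums of sham replicates 2, 4 and 5 lay inside the 1 dpci range.

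**Figure D3:**
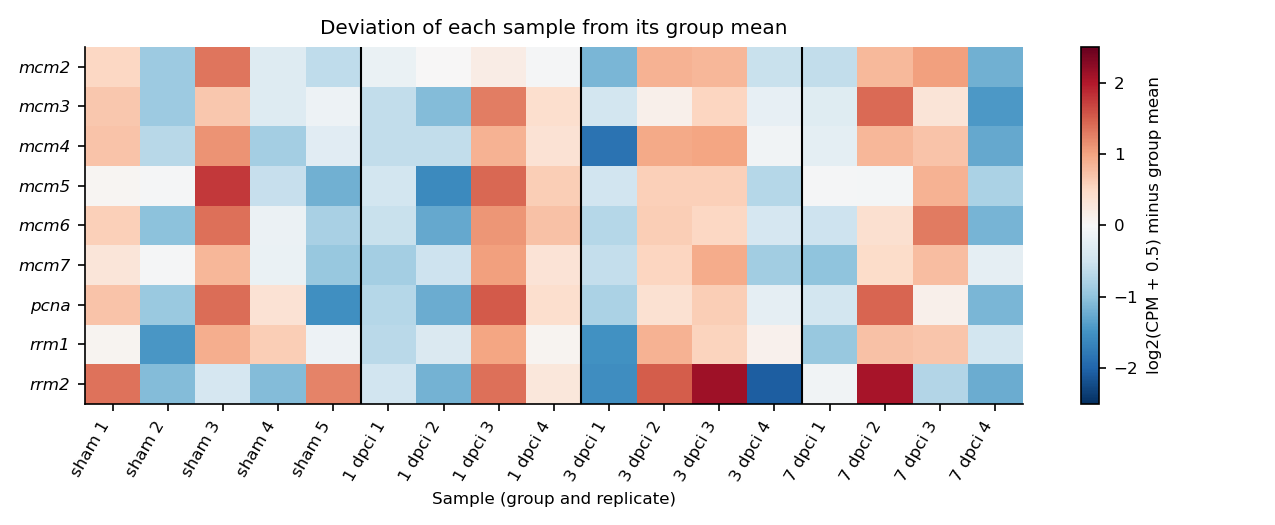
Deviation of each sample from its group mean in log2(CPM + 0.5) (colour) for the 9 genes (rows) in the 17 samples (columns), with black lines between groups. Columns tend to be of one colour, red in sham replicate 3, 1 dpci replicate 3 and 3 dpci replicates 2 and 3, and blue in 7 dpci replicate 4.

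Markers of other cell types were set beside these samples. Of 11 leukocyte markers 6 were tested, and their summed level was 122 to 457 CPM in sham and 20.0 to 52.1 CPM at 1 dpci. In sham the antigen presentation genes cd74a and cd74b made up most of it (means 181 and 39.8 CPM). At 1 dpci their means were 5.83 and 1.11 CPM, and the macrophage marker mfap4 had the highest mean (14.2 CPM). Of these 6 markers cd74a and cd74b were called lower at 1 dpci against sham, whereas mfap4 was called higher (log2 fold change 2.15, SE 0.62) and 3 were not called. In that comparison 14.5% of all entries were called lower and 9.43% higher, which holds for the calls in the marker lists below too. The sum then spanned 68.8 to 613 CPM in the 3 dpci samples and 133 to 445 CPM in the 7 dpci samples. It was high in the same 3 dpci samples as the replication genes (570 and 613 CPM in replicates 2 and 3, against 99.5 and 68.8 CPM). However, sham replicate 3, the highest for the replication genes, was the lowest sham sample for leukocyte markers. At 7 dpci leukocyte markers were highest in replicate 1 (445 CPM), where the replication genes summed to 66.5 CPM. At that time they were lowest in replicate 3 (133 CPM), where the replication genes summed to 169.5 CPM. No leukocyte marker was at 0 in all samples of a group. Exocrine pancreas markers (8 of 12 tested, 7 called lower at 1 dpci against sham) summed to 3856 to 29998 CPM in sham and 386 to 4416 CPM at 1 dpci. They summed to 1211 to 5596 CPM at 3 dpci and 1921 to 30841 CPM at 7 dpci, where replicate 4 was the highest. Stellate and fibroblast markers (5 of 6 tested, 2 called lower at 1 dpci against sham) summed to 42.6 to 128 CPM in sham, 20.0 to 43.2 CPM at 1 dpci with replicates 1 and 2 lowest, 85.4 to 192 CPM at 3 dpci and 62.7 to 154 CPM at 7 dpci. Erythroid markers (5 of 7 tested, 3 called lower at 1 dpci) summed to 1807 to 13657 CPM in sham, 527 to 997 CPM at 1 dpci, 788 to 3520 CPM at 3 dpci and 1089 to 5509 CPM at 7 dpci. Biliary markers (3 of 6 tested, 1 called higher at 1 dpci) summed to 128 to 198 CPM in sham and 190.3 to 262 CPM at 1 dpci. The one called was cldnc, with means of 14.3 CPM in sham and 125 CPM at 1 dpci. The mean of anxa4 went from 125 to 87.8 CPM and that of sox9b from 23.7 to 26.1 CPM. From 1 to 3 dpci anxa4 was called higher (7.66% of all entries) and cldnc lower (3.91%). The sum of the 3 biliary markers was 279 to 442 CPM at 3 dpci, above all sham samples, and 179 to 580 CPM at 7 dpci. At 3 dpci against sham 0 were called and 2 of the 3 had an unadjusted p at or under 0.05 (11.8% of all entries). Endothelial markers (4 of 7 tested) summed to 17.5 to 28.6 CPM in sham and 21.04 to 28.5 CPM at 1 dpci. At 3 and 7 dpci they summed to 17.1 to 41.2 CPM and 10.4 to 28.9 CPM. Of 10 germ line markers 2 were in the count table, and 0 passed the filter on low counts. The part of these cell types in the levels of the 9 genes was not tested.

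**Figure D4:**
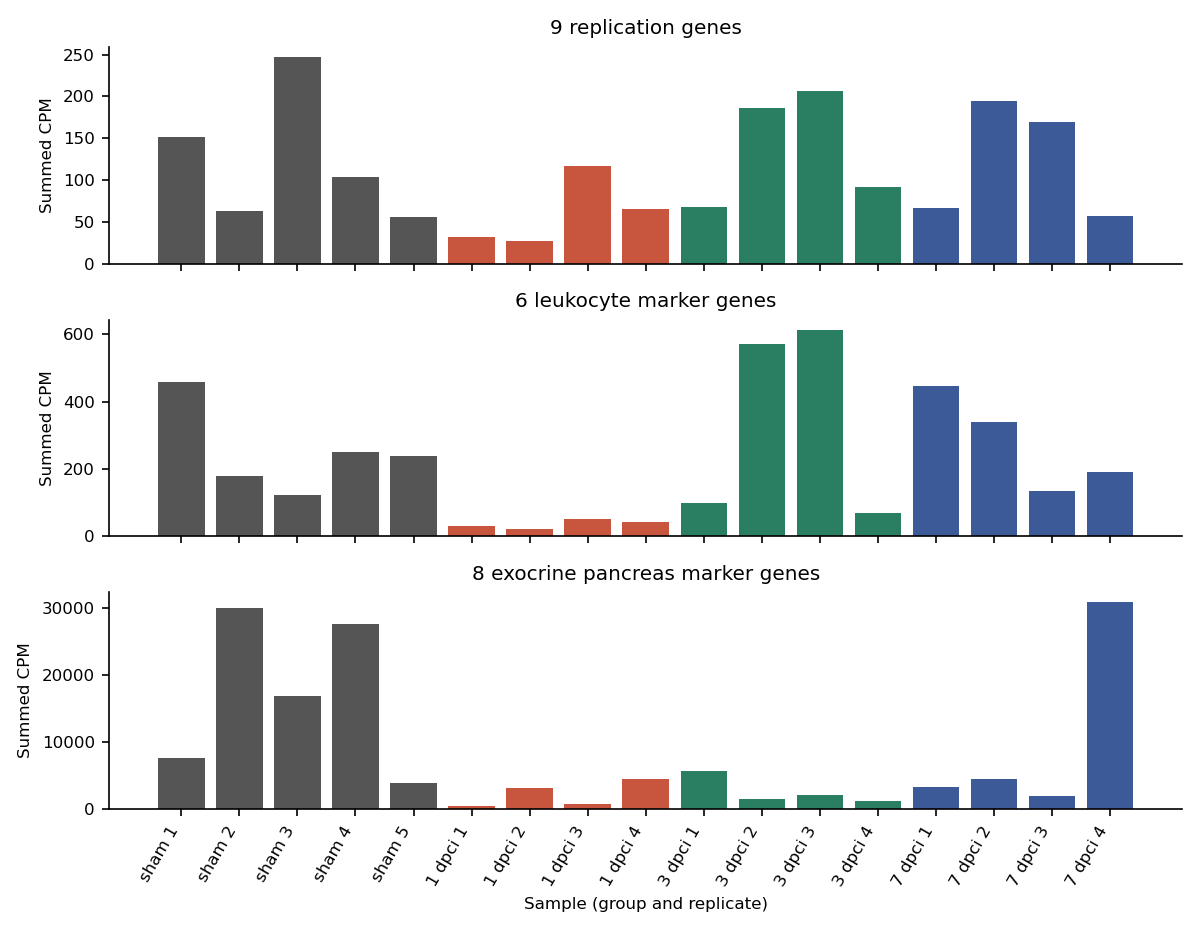
Summed CPM (vertical axes) of the 9 replication genes, of 6 leukocyte markers and of 8 exocrine pancreas markers in each of the 17 samples, coloured by group. The 3 dpci replicates 2 and 3 are high in the first and second panels, and sham replicate 3 (246.9 CPM) is high in the first and low in the second.

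The wider replication machinery was followed with 7 lists of 99 genes, of which 49 were tested. Others, among them orc1, cdc6, cdt1, ccne1 and cdk2, had no entry of that name in the count table. At 1 dpci against sham 5 were called (10.2%, against 23.9% of all entries), 4 lower and 1 higher, with 13 at an unadjusted p at or under 0.05 (26.5%, against 37.9%). DESeq2 called 8 (29.5% of all entries), and the median log2 fold change was -0.79, against -0.02 over all entries. The lower ones called by edgeR were wdhd1 (-2.34, SE 0.81), which encodes an adaptor at the replication fork, cdc45 (-1.38, SE 0.49), which encodes a partner of the MCM ring in the active helicase, dhfr (-1.64, SE 0.55), which encodes the dihydrofolate reductase needed for thymidylate synthesis, and cdc25b (-1.996, SE 0.51), which encodes a phosphatase that activates cyclin-dependent kinases. The higher one was rpa1 (1.97, SE 0.51, adjusted p = 0.0121), which encodes the large subunit of the protein that coats single-stranded DNA in replication and repair. Its level was 24.6 to 63.3 CPM at 1 dpci and 6.08 to 16.6 CPM in sham, without overlap (23.2% of all entries). It was called whichever sample was left out. With column totals, wdhd1, cdc45, dhfr and cdc25b were also below 0 but no longer called, and rpa1 was still called. When each of the 17 samples was left out in turn, wdhd1 was called 3 times, cdc45 2 times, dhfr 12 times and cdc25b 17 times. At 1 dpci wdhd1 (0.303 to 1.08 CPM) and cdc45 (0.502 to 1.19 CPM) were near the floor of 0.325 to 0.527 CPM there.

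At 3 and 7 dpci against sham 0 of the 49 were called by edgeR (0.0119% and 0% of all entries). At an unadjusted p at or under 0.05 there were 4 (8.16%, against 11.8% of all entries) and 1 (2.04%, against 9.08%). DESeq2 called 0 (2.37% and 0.266% of all entries) and left 25 and 46 without an adjusted p. The median log2 fold changes were 0.01 and -0.13, against -0.01 and 0.04 over all entries. From 1 to 3 dpci 34 of the 49 were higher (52% of all entries were), with a median log2 fold change of 0.62, against 0.04 over all entries. At an unadjusted p at or under 0.05 there were 11 (22.4%, against 29.3% of all entries), and DESeq2 called 9 (18.8% of all entries). By edgeR 2 were called (4.08%, against 11.6% of all entries), cdc25b higher (2.38, SE 0.53) and cad, whose product starts pyrimidine synthesis, lower (-1.58, SE 0.41). From 1 to 7 dpci 33 of the 49 were higher (53.4% of all entries were), with a median log2 fold change of 0.38, against 0.08 over all entries. An unadjusted p at or under 0.05 was reached by 12 (24.5%, against 37.7% of all entries), and DESeq2 called 8 (29.3% of all entries). By edgeR 4 were called (8.16%, against 23% of all entries). Of the 4, the helicase assembly factor gene mcm10 (2.90, SE 0.89) and cdc25b (1.92, SE 0.53) were higher, and rpa1 (-2.36, SE 0.56) and the nucleotide kinase gene cmpk (-1.46, SE 0.43) were lower. With column totals the calls of mcm10 (adjusted p = 0.0659) and of cdc25b at 7 against 1 dpci (adjusted p = 0.109) were lost. Of the 17 fits without 1 sample, mcm10 and cmpk were each called in 12, cdc25b in 16 and rpa1 in 17, and from 1 to 3 dpci cad was called in 15. At 1 dpci mcm10 was at 0 to 1.06 CPM, near the floor of 0.325 to 0.527 CPM there.

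Of 8 tested genes for G1 and arrest, 3 were called at 1 dpci against sham, where 23.9% of all entries were, and 5 were not. Of these genes gadd45aa (3.71, SE 0.88) and cdkn1a, which encodes the cyclin-dependent kinase inhibitor p21 (2.19, SE 0.75), were higher than in sham, and cdk4, which encodes a kinase of G1 progression (-1.53, SE 0.54), was lower. The level of gadd45aa was 11.4 ± 10.6 CPM at 1 dpci (SD, n = 4) and 0.861 ± 0.445 CPM in sham (SD, n = 5), with no overlap (23.2% of all entries). Its sham samples were at 0.227 to 1.22 CPM, near the floor of 0.553 to 0.874 CPM there, and the lowest 1 dpci sample was at 1.76 CPM. With column totals gadd45aa and cdkn1a were still called and cdk4 was not. Of the 17 fits without 1 sample, gadd45aa was called in 17, cdkn1a in 9 and cdk4 in 6. From 1 to 7 dpci 2 of the 8 were called (23% of all entries), cdk4 (1.79, SE 0.56) and mycb (1.97, SE 0.67), both higher. Both calls were lost with column totals (adjusted p = 0.0949 and 0.133), and they were made in 11 and 10 of the 17 fits without 1 sample (adjusted p up to 0.173).

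Of 16 listed genes of mitosis, set beside the replication genes for comparison, 5 were tested. The one called at 1 dpci against sham by edgeR (23.9% of all entries) was top2a, which encodes the topoisomerase that untangles sister chromatids. It was lower (-2.80, SE 0.82, adjusted p = 0.0213 by edgeR). Its level was 0.780 ± 0.901 CPM at 1 dpci (SD, n = 4) and 5.86 ± 1.67 CPM in sham (SD, n = 5), and the samples did not overlap (23.2% of all entries). The 1 dpci samples were at 0.126 to 2.06 CPM, near the floor of 0.325 to 0.527 CPM there. From 1 to 3 dpci all 5 fitted values were above 0 (52% of all entries were), and 5 had an unadjusted p at or under 0.05 (29.3% of all entries). Of the 5, edgeR called 2 higher (11.6% of all entries called), top2a (3.40, SE 0.84) and the proliferation marker mki67 (2.29, SE 0.64). DESeq2 called 4 (18.8% of all entries). From 1 to 7 dpci all 5 were again above 0 (53.4% of all entries were), and 5 had an unadjusted p at or under 0.05 (37.7% of all entries). Of these edgeR called 3 higher (23% of all entries called), top2a (4.01, SE 0.86), mki67 (2.05, SE 0.64) and aurkb (2.13, SE 0.74), which encodes a mitotic kinase. DESeq2 called 4 (29.3% of all entries). Of the 17 fits without 1 sample, aurkb was called in 6, mki67 in 12 at 3 and 13 at 7 against 1 dpci, and top2a in 15 and 17, and in 14 at 1 dpci against sham. At 1 dpci aurkb was at 0.152 to 1.30 CPM, also near the floor. Against sham 0 of the 5 were called at 3 or 7 dpci (0.0119% and 0% of all entries), with 0 at an unadjusted p under 0.05 (11.8% and 9.08%). DESeq2 called 0 (2.37% and 0.266% of all entries) and left 2 and 5 without an adjusted p. All 5 values were nevertheless above 0 at both times (medians 1.04 and 1.02), as were 49% and 53.5% of all entries. At 7 dpci the SD exceeded the mean for top2a (13.5 ± 16.3 CPM), tpx2 (6.38 ± 7.74 CPM) and ube2c (4.84 ± 7.09 CPM, SD, n = 4 each). It did not for mki67 and aurkb. With column totals top2a was still called at 3 and 7 dpci against 1 dpci, and mki67, aurkb and the lower top2a at 1 dpci were not. The difference between the mitosis and the replication genes was not tested.

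**Figure D5:**
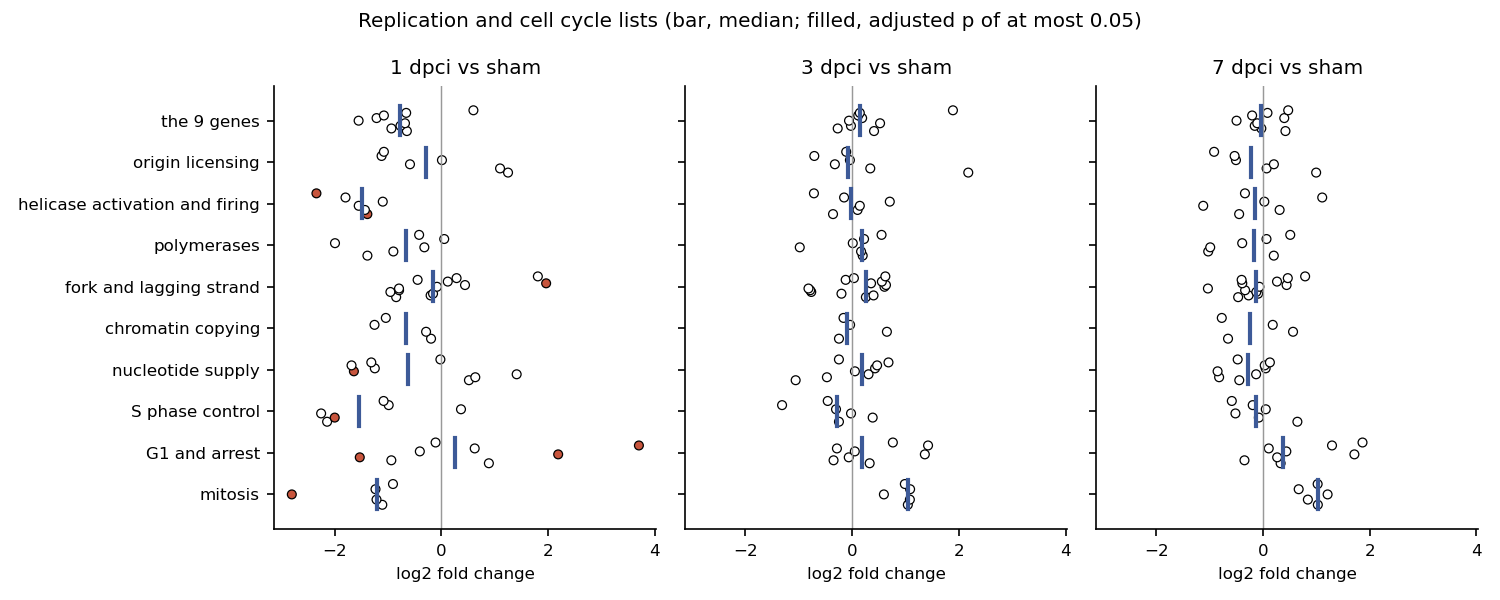
Log2 fold change (horizontal axis) of the 9 genes and of the tested genes in the lists for replication, G1 and arrest, and mitosis, at 1, 3 and 7 dpci against sham. Bars mark the median of each list and filled points an adjusted p of at most 0.05. Filled points appear at 1 dpci only, and the mitosis median is 1.04 at 3 dpci and 1.02 at 7 dpci. Under column totals the median of the 9 genes at 1 dpci lies above 0 (0.23).

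Outside the 9 genes, the entries whose log2 CPM followed the mean of the 9 most closely over the 17 samples were znf367 (r = 0.929), si:ch211-288g17.3 (0.894), the thymidylate synthase gene tyms (0.882), gins4, which encodes a subunit of the GINS complex of the active helicase (0.846), cdca7a (0.835), the thymidine kinase gene tk1 (0.812), slc51a (0.808) and the deoxycytidine kinase gene dck (0.805). Within groups, 30 of the 49 tested replication entries had a correlation over 0.5 with the 9 genes (61.2%), against 5.78% of the other 8403 entries, 2 of 5 for mitosis and 0 of 8 for G1 and arrest. Among markers it was 1 of 6 for leukocytes and 1 of 3 for biliary cells. It was 0 for hepatocyte, erythroid, endothelial, stellate and fibroblast, and exocrine pancreas markers. These are correlations over 17 samples that share depth and tissue makeup, given as a description.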

How the data were processed

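Liver RNA was sequenced by the authors. The protocol names a stranded total RNA kit, whereas the labels give polyA RNA, so the library type is not settled. The deposited table holds raw counts per gene made by the authors with cutadapt 1.16, HISAT2 2.1.0 and featureCounts 1.6.0. The submitters' notes name danRer10 and limma 3.40.6, whereas the methods name a later build and edgeR. Strand use in counting and any filter on entries are not given in the sources used here. A deposited table of normalised values was not used. Counts were tested here in 1 fit of all 17 samples with edgeR 4.0.16 (R 4.3.3), with TMM scaling, the filterByExpr filter, quasi-likelihood tests and Benjamini-Hochberg adjustment over 8412 entries. SE is the size of the log2 fold change divided by the square root of F. DESeq2 1.42.0 and other scalings, filters and sample sets were alternatives, and the procedure was tested on simulated data. Total counts of 4743533 to 6800961 set the precision. Genes named outside the 9 were the called genes of each list (at most the 4 with the smallest p) and the 8 entries with the highest r. The members and lists were chosen with earlier results of these data known.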

Additional observations from a re-analysis of the deposited data

Results flagged for a closer look

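In sham the highest sample for mcm5, replicate 3 at 19.2 CPM, stood far from the others, the next being at 5.53 CPM. Without that sample the log2 fold change of mcm5 was 0.14 at 1 dpci and 0.67 at 7 dpci against sham, both above 0, where the fit of all samples gave -0.68 and -0.11. At 7 dpci the highest sample for rrm2, replicate 2 at 4.43 CPM, stood far from the next at 0.610 CPM, and without it the log2 fold change of rrm2 against sham was -1.71 in place of 0.47. In 36 sets of samples looked at, chance marks about 1 in 20 as having such a far value if levels are normally distributed. Levels in CPM can be skewed, so the rate here is not known, and the far values may have arisen by chance. The effects of 7 dpci and 1 dpci against sham differed for mcm7, by a log2 fold change of 1.61 between these times (adjusted p = 0.0389 by edgeR, SE 0.53).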

How the results depend on the processing

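Of 1347 values of single genes under the alternatives, 81 changed direction, 54 of them by leaving out 1 sample, and 0 of the 81 had an adjusted p at or under 0.05. They fell on 27 of the 54 results, with 8 of the changes at 1 dpci, 21 at 3 dpci and a further 22 at 7 dpci when compared with sham, 6 at 7 against 1 dpci and 24 at 7 against 3 dpci, and none at 3 against 1 dpci. The cause was not tested, except that column totals shift all entries as given above.

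The number of genes called at 7 against 1 dpci fell from 1 to 0 with column totals, with only the 2 groups compared, with the 1 dpci samples summed in pairs and without the 7 dpci libraries 31 and 30. With DESeq2 it was 1 at 1 dpci against sham and 1 at 3 against 1 dpci. Leaving out 1 sample gave 0 to 1 at 1 dpci against sham and 0 to 1 at 7 against 1 dpci. The call at 1 dpci against sham was mcm7 without 1 dpci replicate 3 (adjusted p = 0.0454). No alternative changed the count of 0 at 3 or 7 dpci against sham or at 7 against 3 dpci.

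Of 24 same-numbered pairs of samples, 5 had a correlation of deviations over 0.1 (-0.257 to 0.419). Differently numbered pairs were not set beside them, so these values cannot decide whether the replicate numbers pair the samples. With the replicate block in edgeR 2 genes were called at 1 dpci against sham (mcm6, adjusted p = 0.0432, and mcm7, 0.0149), where 1801 of all entries were called. At 3 against 1 dpci 1 was called (mcm7, 0.0439), where 718 of all entries were. The log2 fold changes turned for mcm7 (-0.14), pcna (-0.20) and rrm1 (-0.11) at 3 dpci against sham, rrm1 (-0.14) at 7 dpci against sham and mcm2 (-0.036) at 7 against 3 dpci.

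With column totals the log2 fold change at 1 dpci against sham turned for mcm2 (0.32), mcm3 (0.056), mcm4 (0.23), mcm5 (0.47), pcna (0.030) and rrm1 (0.33). At 3 dpci against sham it turned for mcm3 (0.16), mcm4 (0.47) and mcm6 (0.45), and at 7 dpci against sham for mcm3 (0.21), mcm4 (0.11), mcm5 (0.28) and pcna (0.14). At 7 against 1 dpci it turned for mcm4 (-0.12) and mcm5 (-0.18), and at 7 against 3 dpci for mcm2 (-0.22), which also turned with DESeq2's size factors (-0.00051) and with the 1 dpci samples summed in pairs (-0.0056). Without the 7 dpci libraries 31 and 30, mcm5 (0.26), rrm1 (-0.033) and rrm2 (-1.13) turned at 7 dpci against sham and mcm3 (-0.13) at 7 against 3 dpci.

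Leaving out 1 sample in turn gave these ranges where the direction changed. At 1 dpci against sham mcm5 ranged from -1.39 to 0.14 and rrm2 from -0.33 to 1.23. At 3 dpci against sham mcm4 ranged from -0.33 to 0.35, mcm6 from -0.29 to 0.44, mcm7 from -0.18 to 0.46, pcna from -0.13 to 0.56 and rrm1 from -0.16 to 0.46. At 7 dpci against sham mcm3 ranged from -0.80 to 0.31, mcm4 from -0.46 to 0.21, mcm5 from -0.51 to 0.67, pcna from -0.95 to 0.23, rrm1 from -0.19 to 0.34 and rrm2 from -1.71 to 1.07. At 7 against 1 dpci rrm2 ranged from -2.31 to 0.78. At 7 against 3 dpci mcm2 ranged from -0.37 to 0.30, mcm3 from -0.53 to 0.58, mcm4 from -0.48 to 0.17, mcm7 from -0.081 to 0.58 and rrm1 from -0.37 to 0.23.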
